A study of Oryza sativa with 6 samples.

Results

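The homeobox genes named HOX and ROC in rice encode the HD-ZIP transcription factors, and their transcripts were compared between tissue at the feeding site of gall midge maggots and un-infested tissue. A probe set was counted as a member where it was assigned to 1 gene whose symbol or synonym is HOX or ROC followed by a number, so that the WOX and OSH homeobox genes were left out. On the Affymetrix Rice Genome Array, 42 of 57381 probe sets met this rule, and they stand for 33 of the 17905 genes that the annotation names. By subfamily they are 16 probe sets of 12 genes in HD-ZIP I, 11 of 8 genes in HD-ZIP II, 6 of 5 genes in HD-ZIP III and 9 of 8 genes in HD-ZIP IV. HOX3 and ROC9 fit the rule by name, but no probe set is assigned to them in the annotation used here.

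HD-ZIP proteins occur only in plants and join a homeodomain, which binds DNA, to a leucine zipper, through which they act as dimers. Subfamily I includes genes that respond to drought and abscisic acid, and subfamily II includes genes tied to auxin and to light. Subfamilies III and IV also carry a lipid-binding START domain. Genes of subfamily III set the upper side of the leaf and pattern the vascular tissue under the control of a conserved microRNA, while those of subfamily IV work in the outermost cell layer and in epidermal cells.

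All plants were of the indica rice RP2068-18-3-5 (RP), which carries the recessive resistance gene gm3 and shows a hypersensitive response to the insect. The RP-I plants were exposed, at an age of 15 days, to 25 female and 10 male midges of the avirulent biotype GMB1, and the RP-UI plants were not exposed but were otherwise handled alike. All trays were moved to a humidity chamber 48 h after the insects were released. From the place where maggots fed on the stem, or from the matching place in RP-UI plants, 1 cm was cut at 24, 48 and 72 h after infestation (hai). These hours do not run from the exposure to midges, since the time when maggots were found established was taken as 24 hai. Each group has 3 biological replicates, each from its own tray and with the 3 times joined in 1 array, so a transcript has 1 value over all times. Maggots, alive at the earlier harvests and dead at the last, had been taken off the tissue.

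Every value below is a log2 signal made by the authors with RMA, in which arrays are brought to a like level, and a difference of 1 is a 2-fold change. The array medians lay between 5.44 and 5.49. RP-I 1 and RP-I 2 were the closest arrays (r = 0.990 across probe sets), and RP-I 3 correlated more with RP-UI 3 (r = 0.968) than with the arrays of its own group (r = 0.961 and 0.954). Arrays numbered 1 and those numbered 3 deviated from their group means alike (correlations of the deviations 0.521 and 0.624). For number 2 the correlation was 0.308, near the 0.295 of RP-UI 1 with RP-I 2, so that pairing is less sure. A fit of limma with the replicate number as a block (blocked below) is given beside the fit on group alone where it changes a call. Calls made only in the blocked fit rest on this pairing. Of the marker lists of cell types, dividing cells were lower in RP-I in 8 of 8 probe sets (mean log2 signal 10.04 to 10.13 in RP-UI and 7.48 to 9.00 in RP-I), and the KNOX genes of the shoot meristem were higher in 7 of 7 (5.94 to 6.67 and 7.28 to 7.39). Secondary wall and xylem markers were lower in 4 of 4 (9.49 to 9.74 and 7.68 to 9.00). In the mean of each of these lists no array lay among those of the other group. By single probe set the groups were apart in 8 of 8 for dividing cells, 4 of 7 for the KNOX genes and 4 of 4 for secondary wall and xylem. Over all probe sets tested, 9.12% had every RP-I array above every RP-UI array and 9.73% below. Leaf markers were present in the stem tissue of both groups (mean log2 signal 9.22 to 9.66 in RP-UI and 8.99 to 9.11 in RP-I over 6 probe sets), as were phloem markers (9.22 to 9.70 and 9.30 to 9.55 over 4). Means were higher in RP-I for 4 of the 6 leaf and 2 of the 4 phloem probe sets. Both probe sets of the light-harvesting gene CAB2R had lower values in RP-I without overlap (log2 fold change -1.32 and -1.59, the second with an adjusted p of 0.0485 blocked). Those of RBCS that were tested had 0.00 to 0.41, the highest without overlap. The sucrose transporter gene SUT1 had higher values (1.29, adjusted p = 0.0164 blocked). Of the probe sets named SUT2, 1 had lower values without overlap (-0.93, adjusted p = 0.0258 blocked), and the others had -0.53 and 0.24. The part of these markers in the HD-ZIP results was not tested.

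In the blocked fit, the HD-ZIP genes that passed with higher signals in RP-I were of subfamilies I and II. Those that passed with lower signals were of subfamily IV. HOX14 of subfamily I rose in RP-I, and it was the only HD-ZIP probe set with an adjusted p under 0.05 on group alone. With the replicate number as a block, 7 of 41 probe sets rose, against 4.06% of all probe sets tested. These were HOX6, HOX12, HOX14, HOX22 and HOX24 of subfamily I and HOX1 and HOX15 of subfamily II. Another 2 of the 41 fell (ROC2 and ROC5 of subfamily IV), a share near the 4.44% of all probe sets that were called lower. No member of subfamily III passed in either fit. Higher and lower means in RP-I numbered 11 and 4 in subfamily I, 7 and 4 in subfamily II, 1 and 5 in subfamily III and 2 and 7 in subfamily IV. Because whole tissue was measured, fewer cells of a type and less RNA per cell cannot be told apart for any of these genes.

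The filter on low signal left 41 of the 42 probe sets, since 1 of the 3 probe sets of HOX16 fell under it, and all 33 genes stayed represented. On group alone 1 of the 41 was called higher and 0 lower, against 0.235% and 0.328% of the 51532 probe sets tested, and 14 of the 41 reached an unadjusted p of 0.05 or less, against 14.2% of all. Blocked, 7 were called higher against 4.06% of all probe sets, and 2 lower against 4.44%. At the threshold that the methods used, an unadjusted p of 0.05 or under with a 2-fold change, 7 were higher (HOX1, HOX5, HOX6, HOX12, HOX14, HOX22 and HOX24) against 2.66% of all, and 2 lower (ROC2 and ROC5) against 2.90%. In 7 probe sets every RP-I array lay above every RP-UI array, against 9.12% of all, and in 5 every RP-I array lay below, against 9.73%. Over all 41 the balance was even, with 51.2% of means higher in RP-I and a median log2 fold change of 0.02, close to the 51.4% and 0.01 of all probe sets. Without the arrays numbered 1 the blocked fit of limma called 0 of the 51532 probe sets, though 8110 reached an unadjusted p of 0.05 or less.

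**Figure D1:**
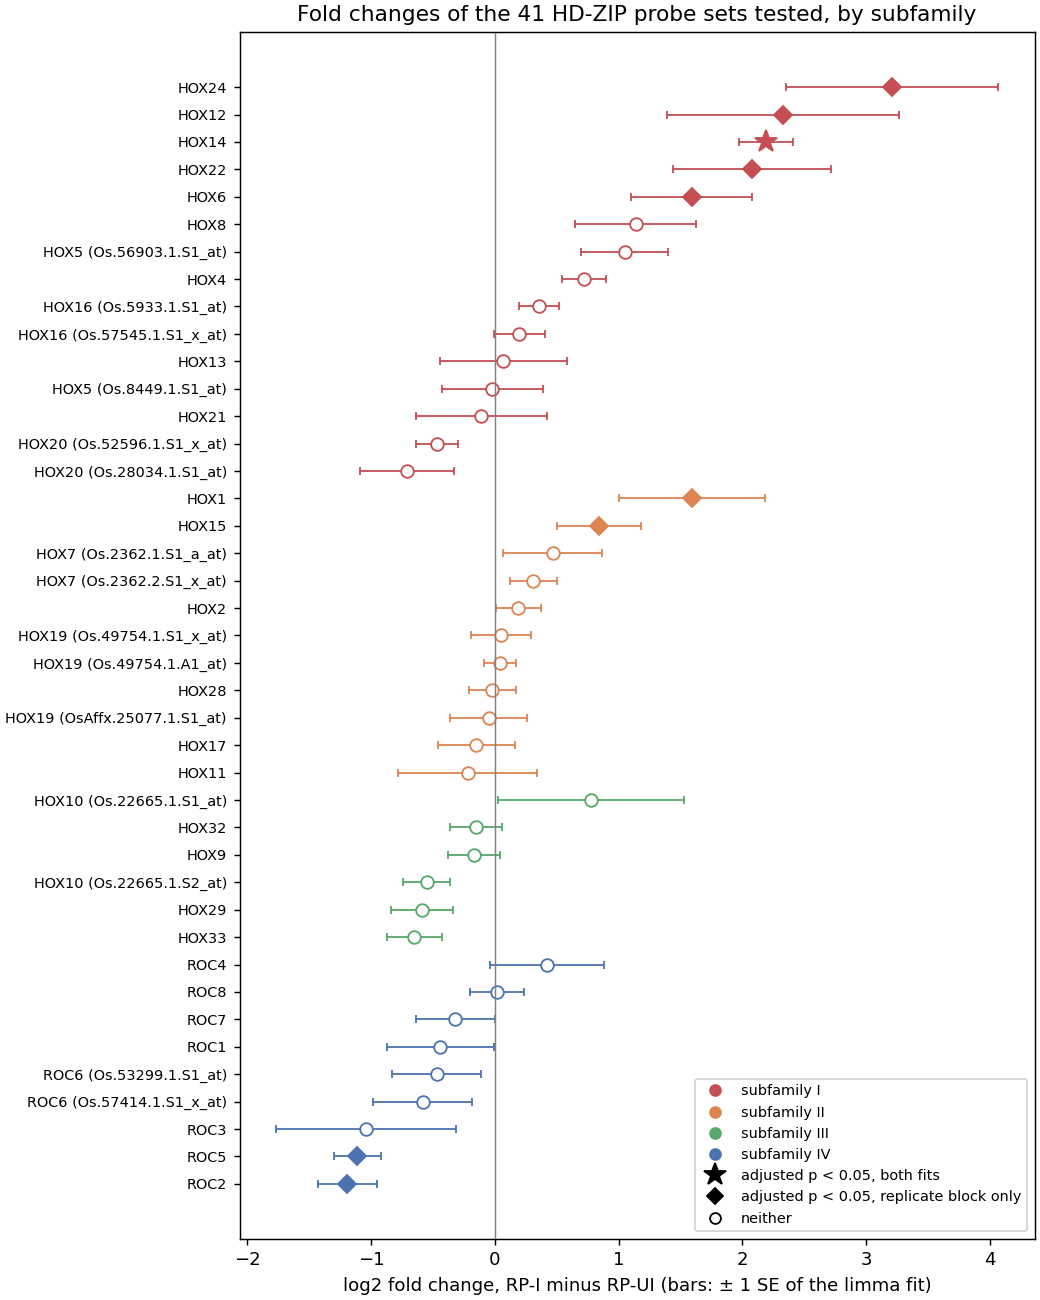
The log2 fold change (RP-I minus RP-UI, horizontal axis) of each of the 41 HD-ZIP probe sets tested, with bars of 1 standard error of the limma fit, coloured by subfamily. The filled symbols lie to the right of 0 in subfamilies I and II (HOX24 at 3.21, HOX14 as a star at 2.19) and to the left in subfamily IV (ROC2 at -1.19, ROC5 at -1.11).

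In subfamily I, HOX14, a rice relative of the barley row-type gene VRS1 with a part in panicle development, had log2 signals of 5.66, 5.38 and 5.89 in RP-UI 1, 2 and 3. In RP-I 1, 2 and 3 it had 7.58, 7.76 and 8.17, so the groups stood far apart and each was narrow (5.64 ± 0.26 and 7.84 ± 0.30, mean ± SD, n = 3). The log2 fold change was 2.19 (standard error, SE, 0.22), which is 4.57-fold, and limma's adjusted p was 0.0332, or 0.0150 blocked. The difference was alike in every replicate pair (1.92, 2.38 and 2.27). Its adjusted p was 0.0377 without RP-I 3, but without RP-UI 1, RP-UI 2, RP-UI 3, RP-I 1 or RP-I 2 it was 0.221, 0.135, 0.0511, 0.0716 or 0.173, while the log2 fold change stayed between 2.03 and 2.32. With any of those 5 arrays left out, limma called 0 of the 51532 probe sets, and 5015 to 7979 reached an unadjusted p of 0.05 or less.

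HOX24, HOX22 and HOX6 are close relatives, and the first 2 are known for their part in drought and abscisic acid responses. HOX24 had log2 signals of 6.46, 8.22 and 9.92 in RP-UI against 10.63, 11.95 and 11.65 in RP-I. The groups did not overlap, but the un-infested arrays were spread over 3.45 log2 units. Its log2 fold change of 3.21 (SE 0.86) was the highest of the HD-ZIP genes, 9.25-fold, and ranked 25 among all 51532 probe sets. The adjusted p was 0.150 on group alone, and blocked HOX24 rose (adjusted p = 0.0268). The difference was 4.17, 3.73 and 1.73 in pairs 1, 2 and 3, and the log2 fold change moved to 2.34 without RP-UI 1 and to 4.07 without RP-UI 3.

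HOX22 had log2 signals of 6.72, 8.45 and 8.70 in RP-UI against 9.03, 10.59 and 10.49 in RP-I. The groups did not overlap, and the arrays numbered 1 were lowest in each group. Its log2 fold change was 2.08 (SE 0.64, adjusted p = 0.203), it rose when blocked (adjusted p = 0.0150), and the value ran from 1.46 without RP-UI 1 to 2.58 without RP-I 1. HOX6 had 7.13, 7.22 and 8.32 in RP-UI against 8.47, 8.93 and 10.05 in RP-I, with replicate 3 highest in each group. It did not overlap between groups either, since the lowest infested array stood just above RP-UI 3. The log2 fold change was 1.59 (SE 0.49, adjusted p = 0.203), and blocked HOX6 rose (adjusted p = 0.0150). The differences by pair were even for both genes, 2.31, 2.13 and 1.79 for HOX22 and 1.34, 1.71 and 1.73 for HOX6.

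HOX12 switches on EUI1, the gene of an enzyme that inactivates gibberellin, and affects how far the panicle emerges. Its log2 signals were 7.29, 7.25 and 10.57 in RP-UI against 10.10, 10.50 and 11.50 in RP-I. The groups overlapped because RP-UI 3 stood above RP-I 1 and RP-I 2. The log2 fold change was 2.33 (SE 0.94, adjusted p = 0.333, or 0.0460 blocked, where it rose), and the difference was 2.81, 3.25 and 0.93 in pairs 1, 2 and 3. With single arrays left out the log2 fold change on group alone ran from 1.77 (adjusted p = 0.659, without RP-UI 2) to 3.43 (adjusted p = 0.0646, without RP-UI 3), and the adjusted p was highest without RP-UI 1 (0.720). Its target EUI1 had 5.67, 5.79 and 5.54 in RP-UI against 5.61, 5.99 and 6.10 in RP-I, so that those groups overlapped too (log2 fold change 0.23, SE 0.17, adjusted p = 0.702).

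HOX5 has 2 probe sets that did not go together. Its probe set of lower signal had log2 signals of 5.88, 4.66 and 5.19 in RP-UI against 6.58, 6.43 and 5.86 in RP-I, with RP-I 3 just under RP-UI 1. Its log2 fold change was 1.05 (SE 0.35, adjusted p = 0.234, or 0.0746 blocked), whereas the other probe set had -0.02 (SE 0.41). HOX8 had a like value of 1.14 (SE 0.49, adjusted p = 0.378), with the groups apart and RP-I 3 (7.87) well above RP-I 1 and RP-I 2 (6.21 and 6.16). The probes of its only set can match more than 1 transcript.

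HOX4 and HOX16 were picked for their mean signal over all 6 arrays, and both had slightly higher means in RP-I. HOX4, studied for its part in gibberellin responses and plant height, had 9.77, 9.52 and 10.14 in RP-UI against 10.57, 10.52 and 10.48 in RP-I. The infested arrays lay within 0.08 of each other and above all un-infested ones (log2 fold change 0.72, SE 0.18, adjusted p = 0.139, or 0.0686 blocked). The probe set of HOX16 with the highest signal had 11.83, 12.12 and 12.07 in RP-UI against 12.36, 12.56 and 12.17 in RP-I, again with no overlap and with a log2 fold change of 0.36 (SE 0.16, adjusted p = 0.403). Its other probe set that was tested had 0.20, and the probe set under the filter lay between 3.16 and 3.77. HOX13 and HOX21 had log2 fold changes of 0.07 and -0.11, and both probe sets of HOX20 had lower means in RP-I (-0.71 and -0.47). For the latter probe set of HOX20 all RP-I arrays (7.50 to 7.99) lay under all RP-UI arrays (8.11 to 8.30), with an adjusted p of 0.269. The probes of this set, and those of the only set of HOX21, can match more than 1 transcript.

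**Figure D2:**
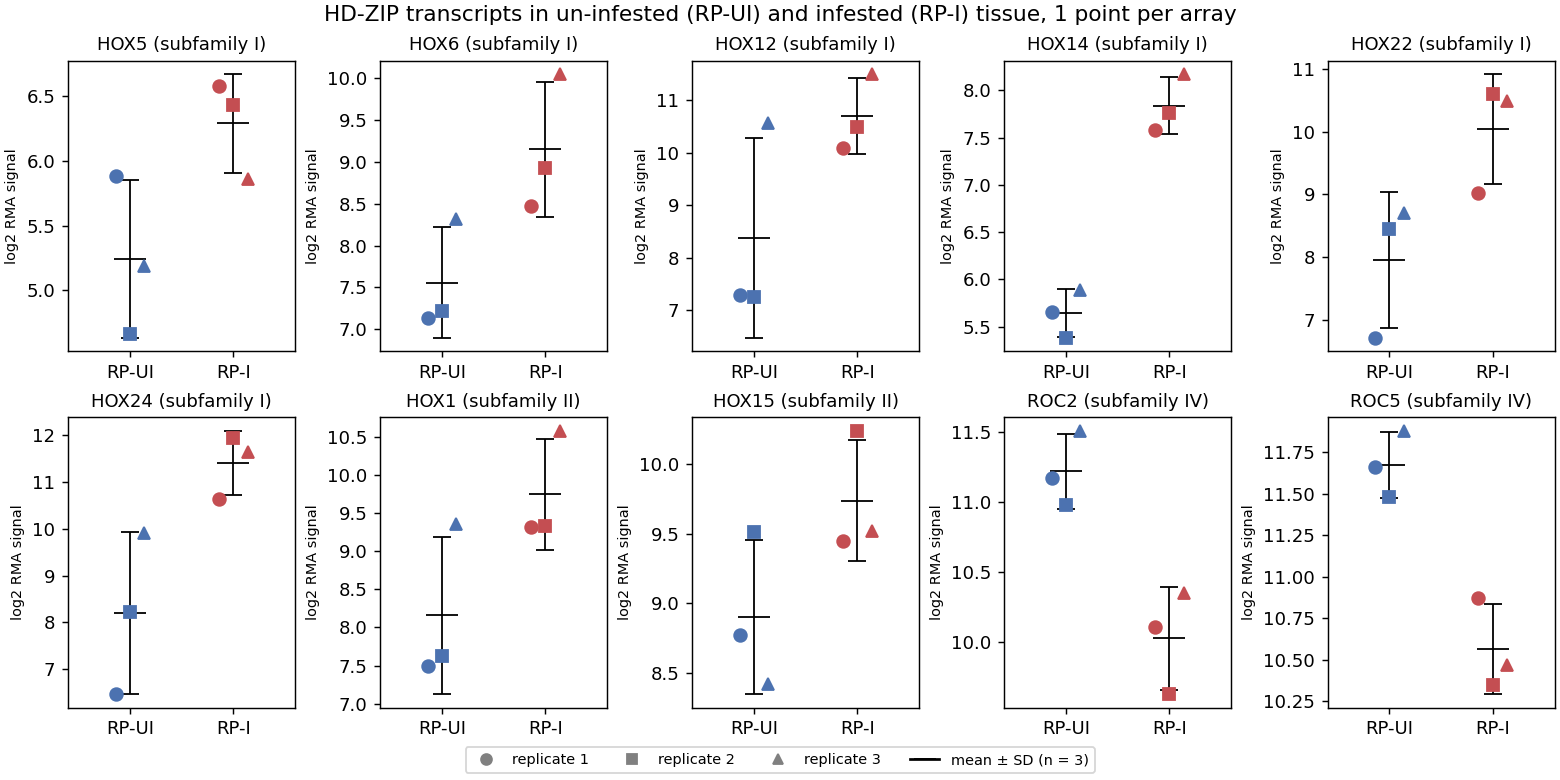
Log2 RMA signal (vertical axis, a separate scale in each panel) of the 10 HD-ZIP genes with an adjusted p under 0.05 in either fit or past the methods' threshold, in RP-UI and RP-I, with 1 point per array, marker shape for the replicate number, and lines for the mean ± SD (n = 3). HOX14 (5.38 to 5.89 and 7.58 to 8.17) shows the clearest gap, while in HOX12 the RP-UI 3 array at 10.57 lies among the infested ones.

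In subfamily II, HOX1 and HOX15 rose in the blocked fit and the other 6 genes passed neither fit. HOX1, which acts with HOX28 on tiller angle and has been tied to auxin and vascular development, had log2 signals of 7.50, 7.62 and 9.35 in RP-UI against 9.32, 9.33 and 10.58 in RP-I. The groups overlapped only because RP-UI 3 stood just above RP-I 1 and RP-I 2, and in each group replicate 3 was highest. The log2 fold change was 1.59 (SE 0.59, adjusted p = 0.287, or 0.0168 blocked), with 1.82, 1.71 and 1.23 in pairs 1, 2 and 3. On group alone it ran from 1.17 without RP-I 3 (adjusted p = 0.426) to 2.18 without RP-UI 3 (adjusted p = 0.113), with 1.26 (adjusted p = 0.664) without RP-UI 1. HOX15 had 8.77, 9.51 and 8.42 in RP-UI against 9.45, 10.24 and 9.52 in RP-I, which overlapped because RP-UI 2 was above RP-I 1. Its log2 fold change was 0.84 (SE 0.34, adjusted p = 0.344, or 0.0340 blocked), and the probes of this set can match more than 1 transcript.

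The rest of subfamily II differed little. HOX28, the partner of HOX1 in tiller angle, had 6.21, 6.02 and 6.51 in RP-UI against 6.13, 6.07 and 6.47 in RP-I, nearly the same values pair by pair (log2 fold change -0.02, SE 0.19). HOX2, HOX11 and HOX17 had log2 fold changes of 0.19, -0.22 and -0.15, and the probe sets of HOX7 had 0.47 and 0.31. The 3 probe sets of HOX19 had 0.04, 0.05 and -0.05. Arrays of the groups overlapped for all 11 probe sets of subfamily II. HSFA2D, a heat shock factor gene placed under HOX1 and HOX28 in the tiller angle pathway, had probe sets of opposite sign (0.87 and -0.79, adjusted p = 0.234 and 0.305), and the first rose when blocked (adjusted p = 0.0263). The table entry of HSFA2D also carries names of another kind of gene, so which transcript its probe sets read is not settled.

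In subfamily III the means were lower in RP-I for 5 of 6 probe sets, and none passed. HOX33, for which a role in leaf senescence is known, had log2 signals of 10.43, 10.36 and 10.63 in RP-UI against 9.82, 9.43 and 10.21 in RP-I. All infested arrays lay under all un-infested ones (log2 fold change -0.65, SE 0.22, adjusted p = 0.244, or 0.0643 blocked). HOX10 gave opposite signs, and its probe set of higher signal had 11.17, 11.08 and 10.84 in RP-UI against 10.56, 10.16 and 10.70 in RP-I arrays (log2 fold change -0.55, SE 0.19, adjusted p = 0.248), again with no overlap. Its other probe set had 5.86, 5.89 and 7.04 in RP-UI against 6.64, 5.80 and 8.68 in RP-I (0.78, SE 0.75, adjusted p = 0.791). The 2 values of HOX10 lie 1.33 apart. The second has overlapping groups and a SE near its own size, so its direction is not settled.

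HOX9 had signals that overlapped between the groups, 10.88, 11.20 and 10.53 in RP-UI against 10.85, 10.78 and 10.48 in RP-I arrays (log2 fold change -0.17, SE 0.21, adjusted p = 0.864). HOX29 had a log2 fold change of -0.59, with -0.48, -1.33 and 0.04 in pairs 1, 2 and 3. HOX32, whose overexpression rolls the leaf, had -0.15, with -0.25, -0.56 and 0.36. In HOX29 and HOX32 pair 3 thus differed in sign from pairs 1 and 2. The median over subfamily III was -0.36, and by pair it was -0.36, -0.74 and -0.01.

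In subfamily IV, ROC2 and ROC5 had the lowest log2 fold changes of the family. ROC2, which is expressed in the outermost cell layer, had log2 signals of 11.17, 10.98 and 11.51 in RP-UI against 10.11, 9.63 and 10.35 in RP-I. The groups did not overlap, and the difference was even over the pairs (-1.06, -1.35 and -1.16). Its log2 fold change was -1.19 (SE 0.24, adjusted p = 0.0852), a 2.28-fold lower signal, and blocked ROC2 fell (adjusted p = 0.0171). ROC5, which limits the number and size of the bulliform cells that roll the leaf, had 11.66, 11.48 and 11.88 in RP-UI against 10.87, 10.35 and 10.47 in RP-I. These groups were as clearly apart (log2 fold change -1.11, SE 0.19, adjusted p = 0.0686), and blocked ROC5 fell (adjusted p = 0.0253).

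ROC3 had a log2 fold change of near the same size, -1.04, but with a SE of 0.73 and overlapping groups (8.05, 8.17 and 9.66 in RP-UI, 7.49, 6.35 and 8.93 in RP-I, adjusted p = 0.661, or 0.0894 blocked). ROC1, an outer layer gene like ROC2, had 11.49, 10.23 and 11.72 in RP-UI against 10.78, 10.24 and 11.11 in RP-I. In it the arrays numbered 2 were nearly equal, and the other pairs were lower in RP-I arrays (log2 fold change -0.44, SE 0.43, adjusted p = 0.801). Both probe sets of ROC6 had lower means in RP-I (-0.47 and -0.58). ROC4, which controls wax synthesis in the leaf, had 0.42 (SE 0.46), with 0.63, 0.82 and -0.19 by pair. ROC7 and ROC8 had means between 3.69 and 4.25 in either group, near the filter at 3.38, and their log2 fold changes were -0.32 and 0.02.

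The epidermal receptor kinase gene CR4, the marker of the epidermis list that has a probe set assigned here, moved with ROC2 and ROC5. It had log2 signals of 10.32, 10.17 and 10.08 in RP-UI against 9.55, 8.95 and 8.59 in RP-I arrays (log2 fold change -1.16, SE 0.26, adjusted p = 0.102), and blocked CR4 fell (adjusted p = 0.0272). The dividing cell markers were lower as well, with the mean over 8 probe sets at 10.13, 10.07 and 10.04 in RP-UI against 9.00, 8.30 and 7.48 in RP-I. RP-I 3 was lowest in both CR4 and the dividing cell markers, and RP-I 2 was lowest in ROC2. In ROC5 RP-I 2 was lowest by little (10.35, against 10.47 in RP-I 3). By pair the differences were -0.79, -1.13 and -1.41 for ROC5 and -0.77, -1.22 and -1.49 for CR4. For ROC2 they were -1.06, -1.35 and -1.16, and the median of the dividing cell markers was -1.06, -1.59 and -2.86. The part of CR4 and the dividing cell markers in the lower ROC2 and ROC5 signals was not tested.

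**Figure D3:**
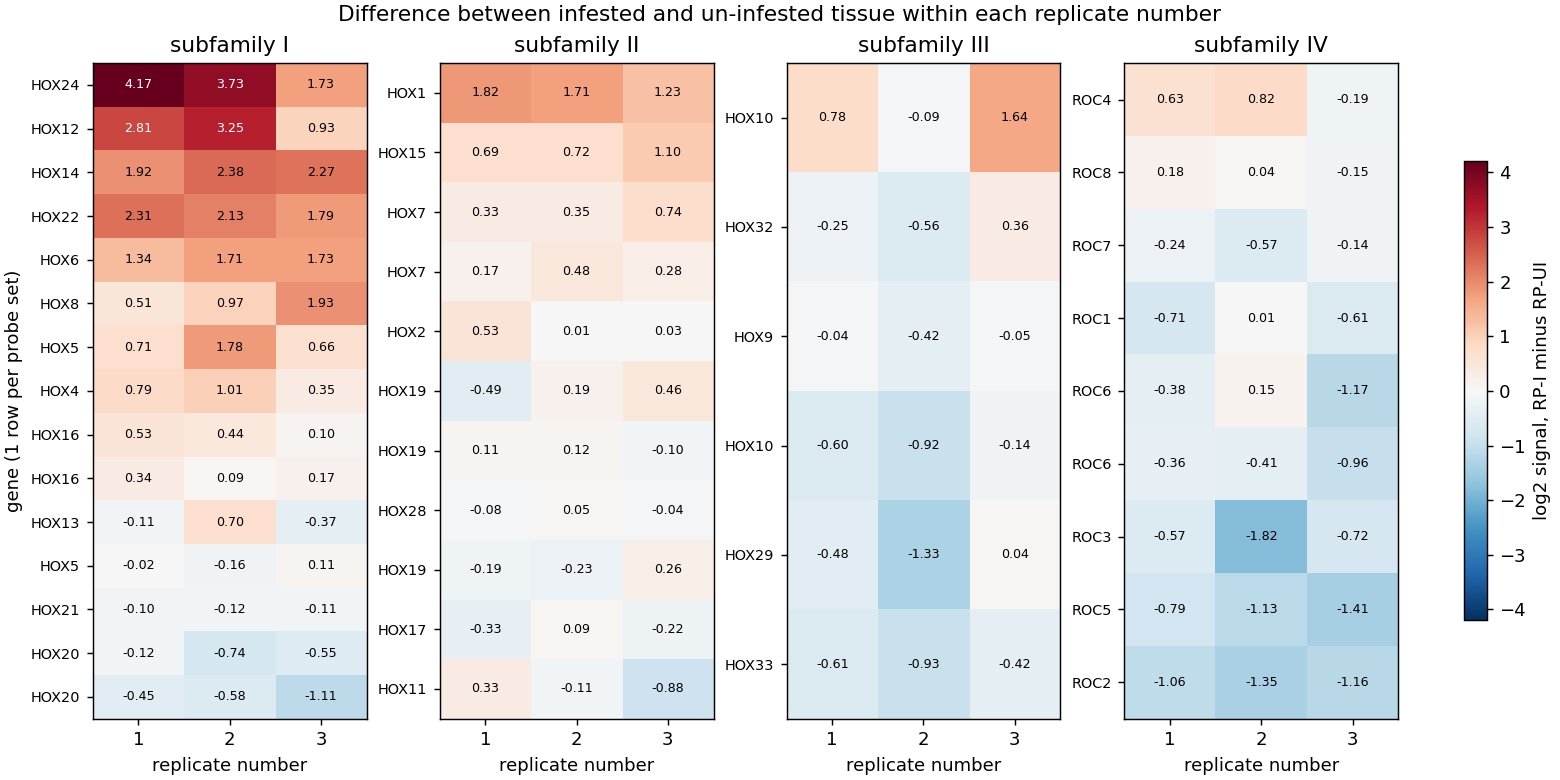
Difference in log2 signal (colour and printed value, RP-I minus RP-UI) between arrays of the same replicate number (columns) for the 41 HD-ZIP probe sets (rows, 1 per probe set), by subfamily. HOX24, HOX12, HOX14, HOX22 and HOX6 are above 0 in all 3 columns, HOX24 from 4.17 to 1.73, and ROC2 and ROC5 are below 0 in all 3.

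By replicate pair, the medians of subfamilies I and II were above 0 in each pair, and those of subfamilies III and IV below 0. The median difference in subfamily I was 0.53, 0.97 and 0.35 in pairs 1, 2 and 3, and 13 of its 15 probe sets had the same sign in all pairs. In subfamily II the medians were 0.17, 0.12 and 0.26, with 5 of 11 of the same sign. In subfamily IV they were -0.38, -0.41 and -0.72, with 5 of 9 of the same sign. Over the whole family this held for 26 of 41 probe sets, and over all probe sets for 22838 of 51532. Without probe sets whose probes can match several transcripts, the median of subfamily I was 1.05 in place of 0.72, and that of subfamily IV was -0.75 in place of -0.47.

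**Figure D4:**
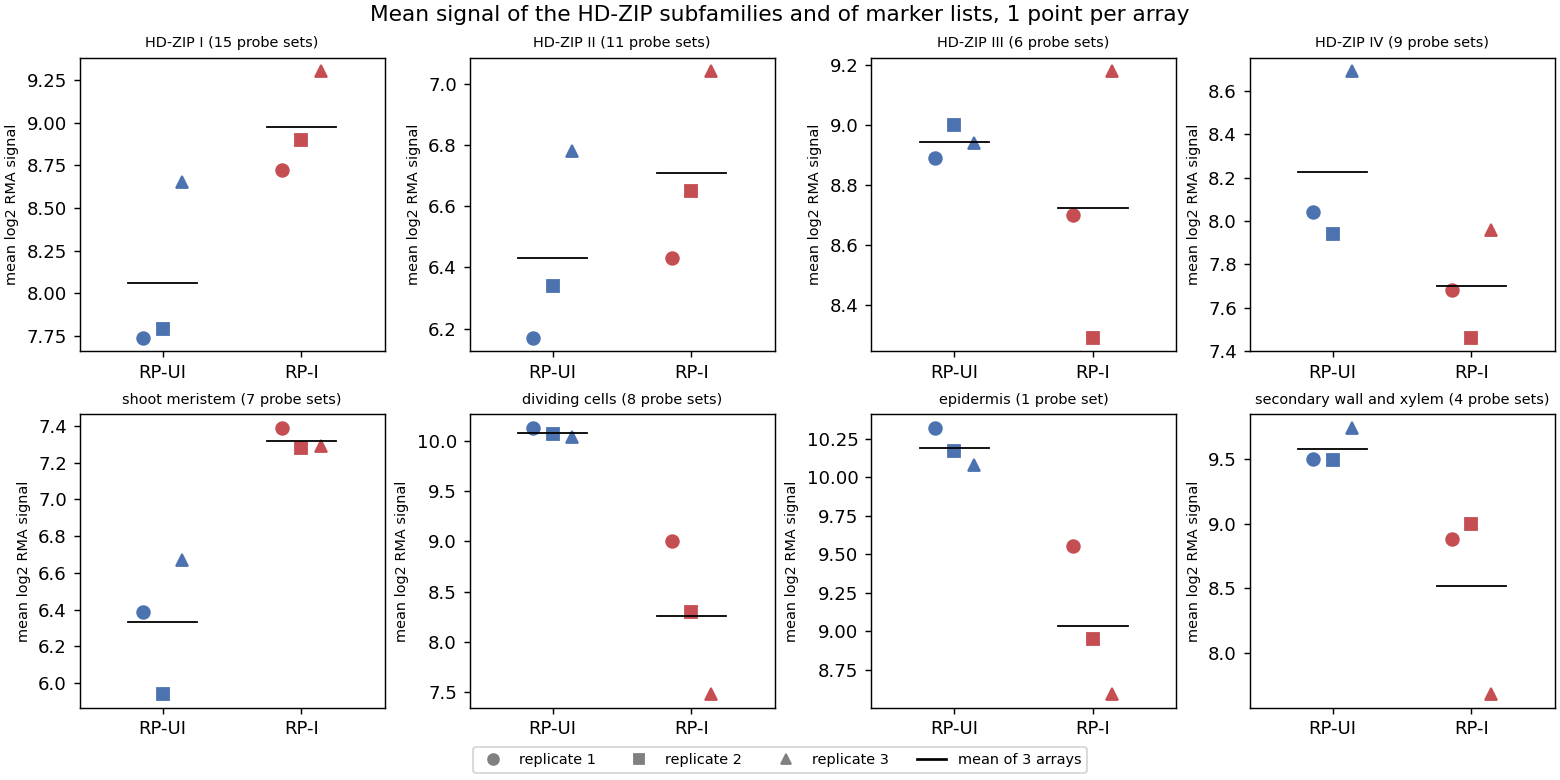
Mean log2 RMA signal (vertical axis, a separate scale in each panel) of the probe sets of each HD-ZIP subfamily (upper row) and of marker lists of cell types (lower row) in each of the 6 arrays, with a line at the mean of 3 arrays. HD-ZIP I lies at 7.74 to 8.65 in RP-UI and 8.72 to 9.30 in RP-I, HD-ZIP IV overlaps (7.94 to 8.69 and 7.46 to 7.96), and dividing cell markers lie at 10.04 to 10.13 in RP-UI and 7.48 to 9.00 in RP-I.

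As a mean over its 15 probe sets, subfamily I had 7.74, 7.79 and 8.65 in RP-UI against 8.72, 8.90 and 9.30 in RP-I, where RP-UI 3 lay just under RP-I 1. The mean of subfamily IV was 8.04, 7.94 and 8.69 in RP-UI against 7.68, 7.46 and 7.96 in RP-I, and here RP-I 3 stood just above RP-UI 2. Those of subfamilies II and III overlapped between the groups as well. Several probe sets stand for each of 7 genes, and their signs went together for HOX7, HOX16, HOX20 and ROC6 but not for HOX5, HOX10 and HOX19. In HOX19 the values lay between -0.05 and 0.05, and the lower value of HOX5 was -0.02, so these signs mean little.

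Genes of leaf polarity and leaf rolling, processes in which some genes of subfamilies III and IV take part, had higher and lower means in like numbers. They comprise the YABBY factors, Argonaute proteins, auxin response factors and the tiller angle gene LA1, and 23 probe sets were found for 17 of the 29 symbols looked for. On group alone 0 of the 23 passed limma's adjusted threshold, 4 reached an unadjusted p of 0.05 or less (against the 14.2% of all probe sets), and the median log2 fold change was -0.14, with 10 higher and 13 lower means. Blocked, 2 were called higher and 1 lower, against 4.06% and 4.44% of all: LA1 (0.85, adjusted p = 0.0342) and YAB4 (0.94, adjusted p = 0.0295) rose, and 1 of the 2 probe sets of a gene named ARF2 fell (-1.14, adjusted p = 0.0170). A different gene of that name has 2 more probe sets, which passed neither fit. DL, which forms the midrib of the leaf, had -0.33 (adjusted p = 0.381).

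A further list joined reported targets of HD-ZIP proteins with tiller angle genes and with wax, epidermis and cuticle genes. Of its 20 symbols 7 were found, and 8 probe sets were tested. EUI1 and HSFA2D stand in it as targets, LA1, WOX6 and WOX11 as tiller angle genes, and CR4 and WSL3 as epidermis and cuticle genes. WSL3 had a log2 fold change of -0.06 (SE 0.22). On group alone WOX11 was the only call (1 higher and 0 lower, against 0.235% and 0.328% of all probe sets). Blocked, 4 were called higher (HSFA2D, LA1, WOX6 and WOX11) and 1 lower (CR4), against 4.06% and 4.44% of all. WOX11, a homeobox gene of crown root growth that also acts in the tiller angle pathway, had log2 signals of 5.01, 4.91 and 5.39 in RP-UI against 8.06, 7.54 and 8.68 in RP-I. It rose by 2.99 on the log2 scale (SE 0.31, adjusted p = 0.0356), with every infested array far above the un-infested ones. As for HOX14, limma called 0 of the 51532 probe sets when any array other than RP-I 3 was left out, where 5015 to 7979 reached an unadjusted p of 0.05 or less. Its relative WOX6 had 1.29 (SE 0.26, adjusted p = 0.0865) and rose when blocked (adjusted p = 0.0477) in the probe set tested, while its other probe set, under the filter, lay between 3.05 and 3.39.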

How the data were processed

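Transcripts of 6 arrays, 3 of RP-I and 3 of RP-UI, were analysed. The authors scanned Affymetrix Rice Genome Arrays, summarised them with RMA and deposited log2 signals. For this step GeneSpring stands in the methods and Affymetrix Expression Console in the submitters' processing notes, where its version is not given in the sources used here. RMA brings all arrays to 1 distribution, so a shift common to all transcripts would not show. The methods describe pooling RNA over the times, and the deposited record describes pooling tissue. No detection calls came with the values, so signals near the low end have no stated background.

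Genes were named from the platform annotation, with symbols and synonyms updated by gene number from the RefSeq gene table. Of 57381 probe sets, 22436 name 1 gene, 95 several and 34850 none. Subfamilies follow textbook membership. The members, the lists and the rule for named genes (a call in either fit, the methods' threshold, or the 2 highest mean signals of a subfamily) were chosen with earlier results of these data known.

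The 123 control probe sets were not used, and a probe set was kept where it averaged at least the 10th percentile (log2 3.38), which left 51532. The groups were compared by limma 3.58.1 (lmFit and eBayes, two-sided, R 4.3.3) for each probe set, with p adjusted by Benjamini-Hochberg over all of them and a call at an adjusted p under 0.05. The fit on group alone was checked on simulated data with independent noise in each array, and the blocked fit was not checked in this way. Same-numbered arrays deviated together (correlations of their deviations from the group means 0.521, 0.308 and 0.624 for numbers 1, 2 and 3), so a fit that also holds the replicate number as a block is given where it alters a call. Between numbers 1 and 2 the correlation reached 0.295, so their pairing is less sure, and the number's origin beyond the trays is not stated. Alternatives were other filters, renormalization, a variance trend, leaving out arrays, 1 probe set per gene, and leaving out probe sets with shared probes. Tables and figures were made with Python 3.11.15, pandas 2.3.3, numpy 2.4.6 and matplotlib 3.10.9. With 3 arrays a group, the number of arrays limits the precision.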

Additional observations from a re-analysis of the deposited data

How the results depend on the processing

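HOX14 was the call on group alone also with no filter, with both other filters, after quantile normalization or median centring, with a variance trend and without probe sets of shared probes. The HD-ZIP probe sets called higher (1) and lower (0) were 7 and 2 with the replicate block and at the methods' threshold. Blocked but without the arrays numbered 1, 2 or 3, settings chosen after seeing the data, 0, 6 and 6 were called higher and 0, 2 and 1 lower. Of the 9 blocked calls, 7 remained without the arrays numbered 2 (HOX12 and HOX15 were lost) and 7 without those numbered 3 (HOX15 and ROC5 were lost). Without the arrays numbered 2, HOX10 of subfamily III was gained as higher in RP-I, in its probe set of lower signal. With single arrays left out, 0 to 1 were called higher and 0 to 0 lower, and at the methods' threshold 4 to 6 were higher and 1 to 3 lower. Over the array the calls numbered 290 on group alone, 4379 blocked, 398 after quantile normalization, 133 with median centring and 87 with a variance trend.

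The median log2 fold change of all HD-ZIP probe sets, 0.02, changed sign with the setting: -0.12 to 0.22 with single arrays left out, 0.11 blocked without the arrays numbered 3 and -0.02 with 1 probe set per gene. For subfamily II single arrays gave 0.05 to 0.24. For subfamily I the median was 1.05 and for subfamily IV -0.75 without probe sets of shared probes. Subfamily IV had -0.66 blocked without the arrays numbered 2 and -0.74 to -0.15 with single arrays left out. The cause of these differences was not tested, beyond the fewer probe sets or arrays that they use. Signals near 3.38, such as those of ROC7 and ROC8, leave little room for a lower value.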

Other observations

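The array numbered 3 was highest in both groups for a larger share of HD-ZIP probe sets than of all, and numbers 1 and 2 for a smaller share. In 23 of the 41 HD-ZIP probe sets tested (56.1%) the array numbered 3 was the highest of RP-UI and also the highest of RP-I, against 23% of all probe sets tested (11862 of 51532). For number 1 this held for 2 HD-ZIP probe sets (4.88%, against 13.7%) and for number 2 for 3 (7.32%, against 15.1%). By subfamily, number 3 was highest in both groups for 8 of 15 probe sets of HD-ZIP I, 6 of 11 of HD-ZIP II, 2 of 6 of HD-ZIP III and 7 of 9 of HD-ZIP IV, also for genes whose groups hardly differed, such as HOX21 (8.20, 7.64 and 9.21 in RP-UI, 8.10, 7.52 and 9.10 in RP-I).

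The HD-ZIP genes also had wider ranges over the arrays of a group than all probe sets tested. Their mean log2 signal by array was higher too (7.55 to 8.38, against 6.47 to 6.49 for all), and ranges at a like signal were not compared. The median range over the RP-UI arrays was 0.74 log2 units for HD-ZIP and 0.42 for all probe sets tested, and over the RP-I arrays it was 0.78 and 0.44. HOX24 and HOX12 had RP-UI ranges of 3.45 and 3.32, reached by 0.6% and 0.675% of all probe sets tested. HOX10, in its probe set of lower signal, and ROC3 had the widest RP-I ranges, 2.88 and 2.59, reached by 0.631% and 1.04%. These are descriptions with no test, and a wide range can come from few arrays, here 3 in each group.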
